A study of Mus musculus with 2 samples.

Results

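The 9 genes described here encode matricellular proteins of the heart and fibronectin: the SPARC family members Sparc, Sparcl1, Smoc1 and Smoc2, periostin (Postn), tenascin C (Tnc), the thrombospondins Thbs1 and Thbs2, and Fn1. They were taken by name from the deposited gene tables through their Ensembl identifiers, and all 9 were found among the 17646 genes listed. Matricellular proteins are secreted into the extracellular matrix, where they bind collagens, growth factors and cell surface receptors and tune adhesion and matrix assembly more than they bear load. Fibronectin, a fibril-forming adhesive glycoprotein, is a structural matrix protein that many of them bind. In the embryonic heart such proteins are made by, among others, endocardial cushion mesenchyme, valve precursors, the epicardium and fibroblasts, and periostin and tenascin C are classic markers of valve and cushion remodelling.

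RNA-seq was done on heart of BALB/c mouse embryos at embryonic day 13.5, with 1 library labelled wild type and 1 labelled SRSF10-/-, called the knockout here. Srsf10 is an SR-type regulator of pre-mRNA splicing. The labels give neither the number of embryos behind a library nor how the allele was made. The comparison asks how the level of these matrix transcripts differs in the heart without Srsf10. With 1 library per group there is no replicate check and no test, and all differences are between these 2 libraries. Each 95% interval is an exact interval of a read number or read ratio and covers counting error only. In bulk tissue, fewer cells of a type and less RNA per cell cannot be told apart.

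The libraries held 39.6 M (wild type) and 38.9 M (knockout) uniquely mapped reads. Srsf10 had 5245 reads in wild type and 212 in knockout. Of 12329 genes with at least 1 RPKM (reads per kilobase of gene and M library reads) in either library, the median log2 ratio of RPKM + 1, knockout over wild type, was -0.01, and the middle 50% lay between -0.14 and 0.13. The Y-linked genes Ddx3y, Eif2s3y, Kdm5d and Uty had 2943 reads together in wild type and 7 in knockout, so genotype and embryo sex cannot be told apart in any difference below. All 9 matrix genes passed the level of 1 RPKM in both libraries.

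Most of the matricellular genes were lower in the knockout heart, and the size of the difference ran from 2.45-fold for Smoc2 to about 1.1-fold for Sparc and Sparcl1. Smoc2, Thbs2 and Smoc1 had the lowest ratios, Tnc and Postn were modestly lower, and Thbs1 and Fn1 were slightly higher. On the log2 scale of RPKM + 1, 7 members were below 0 and 2 above, where 51.8% of all expressed genes were below 0. The median of the 9 log2 ratios was -0.18, beside -0.01 for all expressed genes. At 1.5-fold on this scale 1 member, Smoc2, counted as lower and none as higher, beside 1.44% of expressed genes lower and 1.52% higher. Smoc2 was also past 2-fold, which held for 0.333% of expressed genes. At a looser threshold, a log2 ratio of -0.32 or less, 3 members (Smoc2, Thbs2 and Smoc1) counted as lower, beside 6.98% of expressed genes. The counting interval of the read ratio lay wholly below 1 for 7 members and wholly above 1 for the other 2. At this depth counting error is small, and 31.6% of all expressed genes had such an interval below 1 and 28.0% above 1, so an interval clear of 1 sets a gene little apart.

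**Figure D1:**
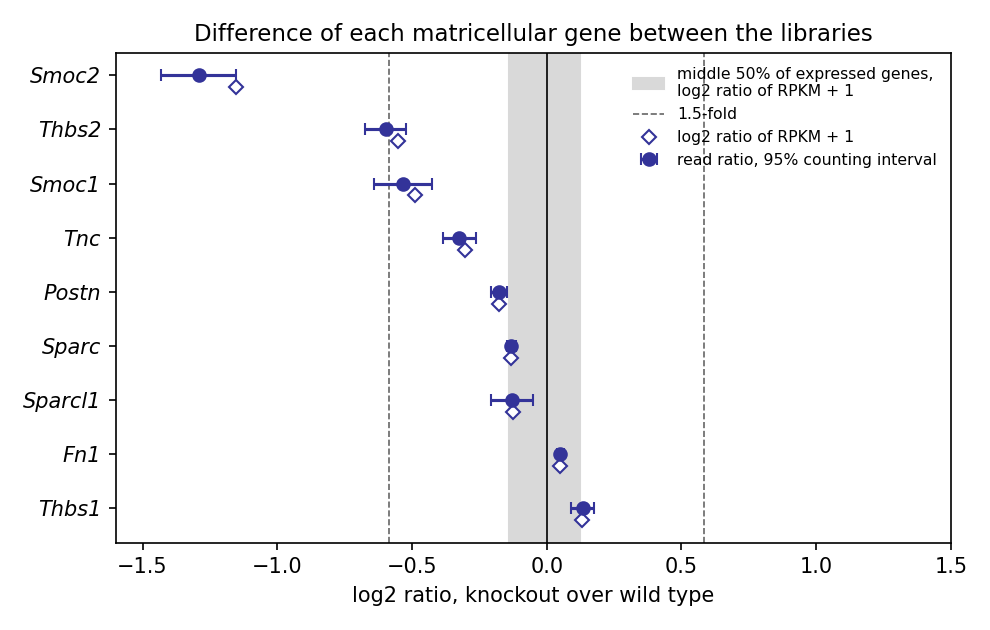
Log2 ratio of knockout over wild type for each matricellular gene, as reads per library read with its 95% counting interval (filled points) and as RPKM + 1 (open diamonds). The grey band holds the middle 50% of 12329 expressed genes, the dashed lines mark 1.5-fold, and Smoc2 at a log2 ratio of RPKM + 1 of -1.15 is the only member whose diamond lies beyond them.

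The 4 SPARC family genes share a calcium-binding extracellular domain. Sparc encodes a collagen-binding protein also called osteonectin and was the most abundant of the 9 genes. Its read number was 52469 (576 RPKM) in wild type and 47034 (526 RPKM) in knockout, placing it 80th and 92nd among all expressed genes by level. The level was 1.10-fold lower in the knockout (interval 1.08 to 1.11), with a log2 ratio of -0.13. Sparcl1, or hevin, an anti-adhesive relative of Sparc, had 2852 reads (23.1 RPKM) in wild type and 2560 reads (21.1 RPKM) in knockout, 1.09-fold lower (1.04 to 1.15). Both genes thus differed by about the same ratio: the level of Sparc over that of Sparcl1 was 24.9 in either library, and its change was 0.999-fold (0.945 to 1.06).

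Smoc2 stood lowest of the 9. SMOC proteins are secreted modular calcium-binding proteins of basement membranes, and they modulate growth factor signalling. Smoc2 had 1477 reads (13.2 RPKM) in wild type and 592 reads (5.38 RPKM) in knockout, 2.45-fold lower (2.22 to 2.70). Its log2 ratio of -1.15 was the 28th lowest of 12329 expressed genes. By level it went from rank 4955 to rank 8558. Its paralog Smoc1, a BMP antagonist, had 1725 reads (12.5 RPKM) in wild type and 1169 reads (8.60 RPKM) in knockout, 1.45-fold lower (1.34 to 1.56). At a log2 ratio of -0.49, 2.41% of expressed genes had an equal or lower ratio. The order of the paralogs turned between the libraries. In the wild type Smoc1 and Smoc2 were at nearly the same level, with overlapping counting intervals of 11.9 to 13.1 and 12.5 to 13.9 RPKM. In the knockout their intervals were apart, at 8.11 to 9.11 RPKM for Smoc1 and 4.95 to 5.83 RPKM for Smoc2. The level of Smoc1 over Smoc2, which does not depend on how the libraries are scaled, moved from 0.946 to 1.60, a 1.69-fold change (1.496 to 1.91). Summed, the SMOC genes went from 25.6 to 14.0 RPKM.

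Periostin, a fasciclin-domain protein that binds integrins and promotes collagen maturation in the valves, was the third most abundant member. Postn had 18850 reads (109 RPKM) in wild type and 16356 reads (96.5 RPKM) in knockout, 1.13-fold lower (1.11 to 1.16). Its log2 ratio of -0.18 is the median of the 9, and 19.4% of expressed genes had an equal or lower value. Tenascin C, a large anti-adhesive glycoprotein of remodelling matrix, had 5008 reads (17.8 RPKM) in wild type and 3927 reads (14.2 RPKM) in knockout. Tnc was 1.252-fold lower (1.20 to 1.31), at a log2 ratio of -0.30 that 7.88% of expressed genes equalled or fell below. Of this pair, Tnc was the lower: Postn over Tnc moved from 6.14 to 6.79, a 1.11-fold change (1.06 to 1.16). Tnc lies on chromosome 4 in the GRCm38 annotation, as Srsf10 does, but the distance between them was not measured.

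The thrombospondins differed in opposite directions. Thbs1 and Thbs2 are close relatives that form trimers, restrain blood vessel growth and bind CD47 and CD36, and Thbs1 can activate latent TGF-beta. Thbs1 had 8906 reads (38.4 RPKM) in wild type and 9590 reads (42.2 RPKM) in knockout, 1.10-fold higher (1.07 to 1.13). Thbs2 had 3619 reads (15.4 RPKM) in wild type and 2347 reads (10.2 RPKM) in knockout, 1.51-fold lower (1.44 to 1.60). The log2 ratio of RPKM + 1 was 0.13 for Thbs1 and -0.55 for Thbs2, and the latter was the 204th lowest of the expressed genes. Thbs2 lay just short of 1.5-fold with a pseudocount of 1 RPKM and past it with 0.1 RPKM, at -0.59. With 0.1 RPKM 2 members thus counted as lower, beside 2.78% of expressed genes. Thbs1 over Thbs2 moved from 2.49 to 4.14, a 1.66-fold change (1.56 to 1.76) close in size to that of the SMOC pair. Summed over both, the thrombospondin level was nearly the same, at 53.9 and 52.4 RPKM.

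Fibronectin had the most reads of the 9 and the second highest level. Fn1 had 90273 reads (274 RPKM) in wild type and 91801 reads (284 RPKM) in knockout, 1.04-fold higher (1.03 to 1.05), with a log2 ratio of 0.05. Fn1 transcripts are known to include or skip alternative exons, and gene totals do not separate these forms. Sparc over Fn1 moved from 2.10 to 1.85, and Fn1 over Tnc from 15.4 to 20.0.

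**Figure D2:**
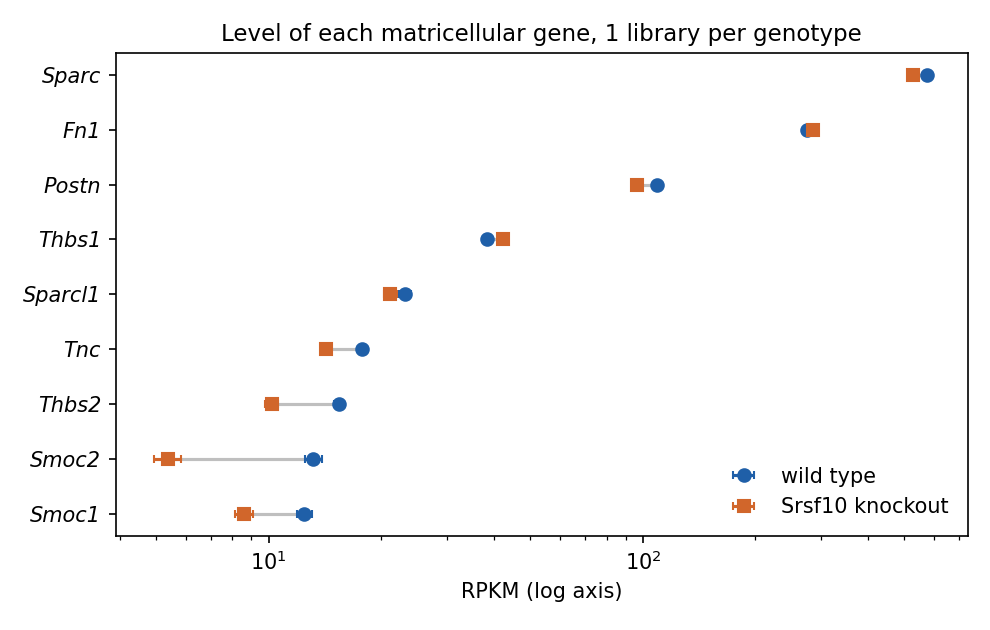
Level of each matricellular gene in RPKM on a log axis, with 95% counting intervals, in the wild-type (circles) and knockout library (squares). Sparc, Fn1 and Postn hold the top in both libraries, and Smoc2 has the widest gap, from 13.2 to 5.38 RPKM.

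The order of levels was otherwise kept. In both libraries it ran Sparc, Fn1, Postn, Thbs1, Sparcl1, Tnc and Thbs2, and only the last places, held by Smoc1 and Smoc2, changed over. In the wild type no neighbours in this order had overlapping counting intervals except Smoc2 and Smoc1. Sparc, Fn1 and Postn together made up 88.8% of the summed level of the 9 genes in wild type and 89.9% in knockout. That sum was 1080 RPKM in wild type and 1008 RPKM in knockout, a ratio of 0.934. The 6 less abundant genes went from 120.4 to 101.7 RPKM, a ratio of 0.845. The members with the lowest ratios were thus among the less abundant, which the plot against mean level shows.

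**Figure D3:**
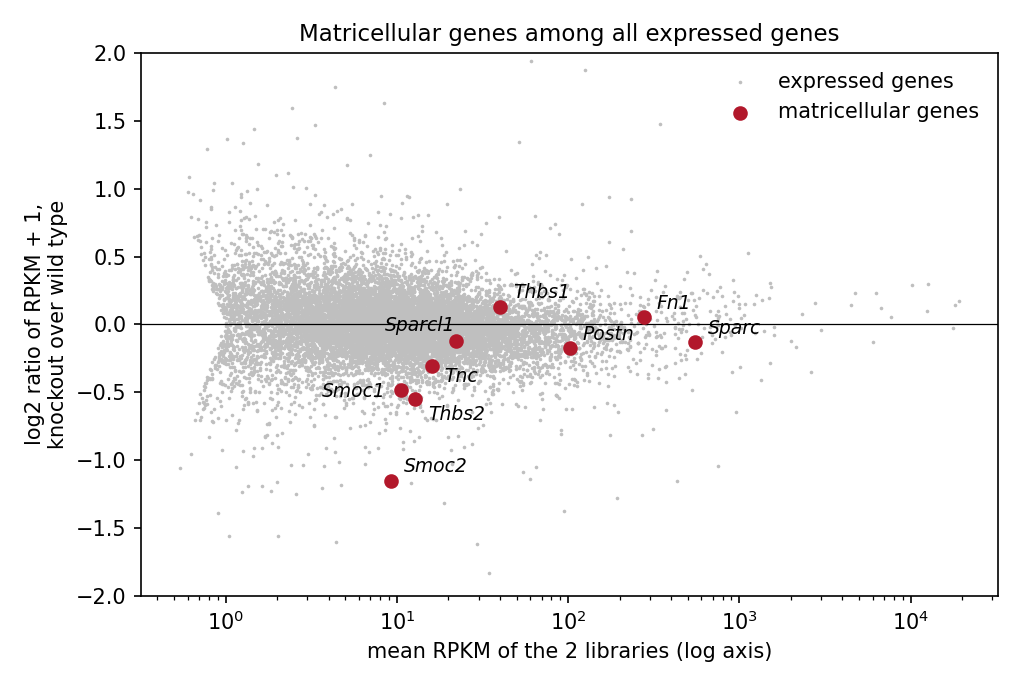
Log2 ratio of RPKM + 1, knockout over wild type, against the mean RPKM of both libraries on a log axis for expressed genes (grey) and the 9 matricellular genes (red). Smoc2, Thbs2 and Smoc1 lie at the lower edge of the cloud and the other 6 inside it, and 10 expressed genes fall outside the plotted range.

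Smoc2 and Thbs2, the members with the lowest ratios, are also neighbours in the genome. Both lie on chromosome 17 in the RefSeq annotation of GRCm38, on opposite strands, with no other gene of the tables that could be matched by symbol between them. The listed gene before Smoc2 is Dact2, an inhibitor of TGF-beta and Wnt signalling, with 436 reads in wild type and 393 in knockout. Its ratio was 0.918 with an interval of 0.799 to 1.05. The listed gene beyond Thbs2 is the pseudogene Gm3222, with 124 reads in wild type and 33 in knockout, 3.69-fold lower (2.495 to 5.59). Of the 31-base words of Gm3222, 91.9% also occur in transcripts of other genes, Gapdh among them, so its uniquely mapped reads measure it with less certainty. The next listed gene beyond it, Wdr27, had 0 and 1 reads. The other 7 members lie on 7 other chromosomes.

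The RefSeq table of start sites held windows for 4 of the 9 genes, namely Postn, Sparc, Thbs2 and Tnc. All 4 were lower in the knockout, and the higher members Thbs1 and Fn1 had no window. The windows thus offer no contrast, and a link between motif and ratio was not tested. The windows of the 3 genes below hold TATAAA, the core of a TATA box, and are shown for members that were lower by 1.51-fold, 1.252-fold and 1.13-fold. Each runs from 250 bases before to 50 after an annotated start on GRCm38.p6, and capitals mark TATAAA on either strand and GGGCGG, the core of a GC box.
Thbs2, minus strand, chr17:14694213-14694512: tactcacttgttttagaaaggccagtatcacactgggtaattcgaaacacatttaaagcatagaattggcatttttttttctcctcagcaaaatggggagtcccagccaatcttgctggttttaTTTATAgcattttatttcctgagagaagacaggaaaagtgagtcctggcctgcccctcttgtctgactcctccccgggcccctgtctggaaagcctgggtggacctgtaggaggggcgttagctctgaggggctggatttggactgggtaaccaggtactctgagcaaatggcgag
Tnc, minus strand, chr4:64046966-64047265: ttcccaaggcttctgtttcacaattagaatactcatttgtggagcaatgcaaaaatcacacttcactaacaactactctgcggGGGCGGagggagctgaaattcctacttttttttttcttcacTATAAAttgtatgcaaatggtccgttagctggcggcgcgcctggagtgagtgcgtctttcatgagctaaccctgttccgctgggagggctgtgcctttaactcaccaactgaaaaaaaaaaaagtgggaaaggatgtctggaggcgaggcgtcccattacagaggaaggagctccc
Postn, plus strand, chr3:54360857-54361156: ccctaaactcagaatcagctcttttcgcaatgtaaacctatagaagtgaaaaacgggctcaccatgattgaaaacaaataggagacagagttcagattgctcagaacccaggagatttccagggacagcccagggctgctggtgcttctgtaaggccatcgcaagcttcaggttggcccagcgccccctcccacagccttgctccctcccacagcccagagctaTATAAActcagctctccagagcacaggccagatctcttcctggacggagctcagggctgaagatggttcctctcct
A further annotated Tnc start has an overlapping window and is not shown. That window holds the same TATAAA match, which lies farther before that start. Nearer to that start it also holds tatataag, which an exact search for TATAAA does not count. In Postn the match begins 26 bases before the start site. In Tnc it begins 126 bases before the start site of the window shown, and in Thbs2 the match is on the opposite strand. TATAAA occurred on either strand in 13.6% of 32851 windows of this length, and GGGCGG, found only in Tnc here, in 35.7%. TGANTCA, an AP-1 type motif (7.81% of windows), CATTCC, a TEAD type motif (14.7%), and the CArG box of serum response factor (1.63%) had no match on either strand in the windows of these 4 genes. The Sparc window held none of the 5 motifs, nor did an upstream Postn window.

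Reads covered the genes along nearly their whole listed length in both libraries. The authors' coverage value ranged over the members from 91.52% to 99.92% in wild type and from 89.56% to 99.88% in knockout, with Sparcl1 lowest in both. Smoc2 went from 99.08% to 97.56% and Thbs2 from 99.58% to 98.65%, so their remaining reads were not confined to a part of the gene. Differences in covered length between the libraries stayed between -1.96 and 0.61 percentage points. Among 8634 genes with at least 592 reads in both libraries, the number Smoc2 had in the knockout, the central 90% of such differences ran from -5.40 to 5.02. The members are also well separated in sequence: at most 2.64% of the 31-base words of their longest transcripts occur in transcripts of another gene. Exons of another annotated gene on the opposite strand overlap Tnc, Thbs1 and Fn1 over at most 3.42% of their exon bases, where reads of the partners cannot be told apart without strand.

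The wider matricellular family stayed within 1.5-fold on the log2 scale of RPKM + 1, on which every count below rests and which understates low genes. Of all expressed genes, 51.8% were below 0 on this scale, 1.44% at least 1.5-fold lower and 1.52% at least 1.5-fold higher. Of 19 further genes (SPARC-related, tenascins, thrombospondins, CCN proteins, osteopontin, Tgfbi and vitronectin) 11 were expressed, 8 of them below 0, none past 1.5-fold, with a median of -0.17. The SPARC relative Fstl1, the most abundant, went from 259 to 265 RPKM. Ccn3, a CCN family regulator, went from 3.08 to 1.72 RPKM (log2 ratio -0.58, 1.79-fold lower by reads) and the testican Spock2 from 2.67 to 3.88 RPKM (0.41).

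Receptors for the 9 proteins had a median of 0.00 over 18 expressed of 19, with 8 above 0, 10 below and none past 1.5-fold. Itgb1, the beta chain that pairs with most fibronectin and tenascin receptors, was the most abundant and went from 196 to 212 RPKM. Itga4, the alpha 4 chain that binds fibronectin, was highest at 1.62-fold by reads (1.51 to 1.74) and a log2 ratio of 0.56, and the thrombospondin receptor Cd36 was lowest at 1.33-fold lower (1.26 to 1.40).

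Collagens bound by matricellular proteins had ratios below those of 6 of the 9 members. All 10 (types I, III, IV, V and VI) were below 0 and 5 were past 1.5-fold, beside 51.8% and 1.44% of expressed genes. Their median was -0.59 and their range from -0.66 (Col6a3) to -0.37. Col1a1 went from 224 to 148 RPKM, whereas Sparc, which binds it, was 1.10-fold lower. Matrix processing and crosslinking genes had 15 of 17 expressed members below 0, none past 1.5-fold, and a median of -0.16. The crosslinking enzyme Lox, which periostin helps to mature, was 1.38-fold lower (1.30 to 1.46), the collagen chaperone Serpinh1 went from 358 to 319 RPKM, and the procollagen protease enhancer Pcolce was 1.19-fold higher. Among TGF-beta ligands, latency proteins, receptors and mediators, which drive Postn and Tnc in many tissues, 11 of 16 were below 0 and 1 was past 1.5-fold, with a median of -0.10. That gene, the latency protein Ltbp4, was 1.58-fold lower (1.53 to 1.64), while Ltbp1 went from 37.9 to 35.7 RPKM and the co-receptor Tgfbr3 was 1.15-fold higher.

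**Figure D4:**
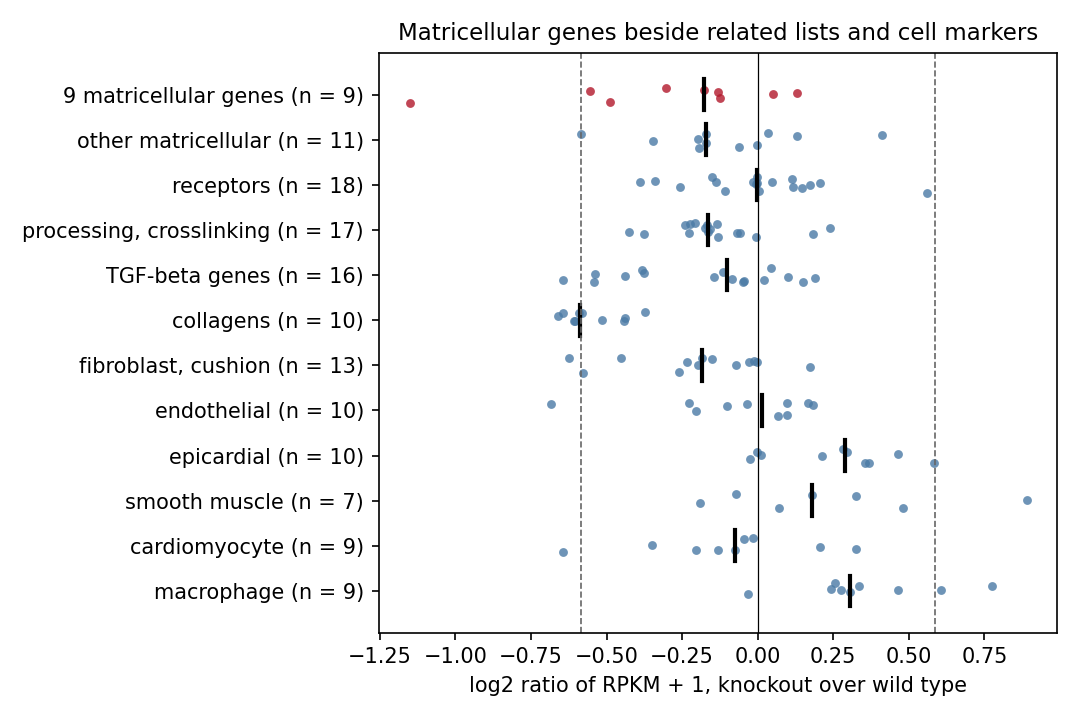
Log2 ratio of RPKM + 1, knockout over wild type, for every expressed gene of the 9 matricellular genes, related lists and marker lists, with a black bar at each median and dashed lines at 1.5-fold. The matricellular median of -0.18 lies near those of the wider family, the processing genes and the fibroblast markers, and of the lists plotted here the collagens have the lowest median.

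Marker lists of the cells that make these proteins did not all go one way. Of the fibroblast and cushion mesenchyme markers 12 of 13 were below 0 and 1 was past 1.5-fold, beside 51.8% and 1.44% of expressed genes. Their median was -0.18, close to that of the 9 genes, and their summed level was 998 RPKM in wild type and 953 in knockout. Vim, the most abundant, was at 749.7 and 748.6 RPKM, Dcn was 1.55-fold lower and Twist1 1.14-fold higher. On the log2 scale Vim (-0.002), Tcf21 (-0.01), Sox9 (-0.03) and Pdgfra (-0.07) lay near 0. The other markers of this list below 0 ran from -0.15 (Ddr2) to -0.62 (Dcn). Epicardial markers were above 0 in 8 of 10, none past 1.5-fold, with a median of 0.29 and a summed level of 173 and 202 RPKM. Here Upk3b went from 63.2 to 77.1 RPKM, Aldh1a1 was 1.79-fold higher by reads (log2 ratio 0.58) and Wt1 was at 13.1 and 12.9 RPKM. Smooth muscle markers were above 0 in 5 of 7, 1 of them past 1.5-fold (median 0.18), with Myl9 1.13-fold and Tagln 1.86-fold higher and Des 1.14-fold lower. Myh11, the other smooth muscle marker below 0, had 387 reads in wild type and 349 in knockout, a read ratio of 0.919 (0.793 to 1.06). Endothelial and endocardial markers were split 5 and 5 around 0, 1 of them past 1.5-fold lower (median 0.01), with Eng 1.07-fold lower, Emcn 1.14-fold higher and Cldn5 1.80-fold lower. No marker of these 4 lists was at 0 in either library. The part of such cell types in the differences of the 9 genes was not tested.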

How the data were processed

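Total RNA of 1 wild-type and 1 knockout heart sample was sequenced. The submitters' processing notes list Bowtie 0.12.2 and mm9, while the sources used here name neither annotation release nor strand use. Per the file headers, the deposited counts are uniquely mapped reads, and each table sums to its stated total. The authors also deposited RPKM, which recomputing from count, length and total returned, and a coverage value, the share of the listed length covered. Genes absent from a table were set to 0 reads.

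Computed here were log2 ratios of RPKM + 1 for genes of at least 1 RPKM in either library (a pseudocount understates low genes), and read ratios with exact conditional Clopper-Pearson 95% intervals. Bounds against 0 reads used a floor of 3 reads. As no molecular identifiers are mentioned, reads may not be independent molecules. The script was tested on simulated counts with counting error only, which does not bear on variation between embryos or libraries. No test was run, as each group has 1 library. Symbols matched 17196 of 17646 identifiers. Rescaling used edgeR 4.0.16 (TMM) and DESeq2 1.42.0. Other pseudocounts, filters, fold thresholds and scalings were tried. Motifs were searched in RefSeq windows on GRCm38.p6. The 9 genes, lists and motifs were chosen with earlier results of these data or the sequences known. Named were the 9 genes, Srsf10, listed neighbours of members lying close together and, per list, the most abundant member and those with the largest positive and negative log2 ratio. The skeletal muscle genes Myog and Myod1, below 1 RPKM, and the Y-linked genes Ddx3y, Kdm5d and Uty were named in addition. Tcf21, Sox9, Pdgfra, Ddr2, Myh11 and Alb were also named, chosen after the data were seen.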

Additional observations from a re-analysis of the deposited data

How the results depend on the processing

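Other pseudocounts, filters on low values and scalings left the direction of every one of the 9 genes as given, in all 72 combinations. A pseudocount or a filter cannot turn a direction, so only the scalings could have done so. They multiplied the knockout levels by 0.996 to 1.01, so the kept directions say little. The log2 ratio of Smoc2 ranged from -1.28 to -0.81, that of Thbs2 from -0.59 to -0.43, that of Smoc1 from -0.53 to -0.36 and that of Fn1 from 0.05 to 0.07. The number of members lower in the knockout was 1 at 1.5-fold and at 2-fold, 2 with a pseudocount of 0.1 RPKM, where Thbs2 joined Smoc2 and 2.78% of expressed genes were lower, and 3 at a log2 ratio of -0.32 or less, beside 6.98% of expressed genes. None was higher under any of these settings. The ratio of the summed level, 0.934, was 0.946 when scaled to reads outside mitochondrial genes, a setting added after the data were seen, and 0.957 without Sparc. The log2 ratio of Srsf10, -3.89, was -4.51 with a pseudocount of 0.1 RPKM and -2.64 with 5 RPKM, both also added. No paired analysis was possible because each group has 1 library. Each of the 9 genes had at least 592 reads in either library, and every difference rests on 1 library per genotype, in which genotype and embryo sex cannot be told apart.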

Other observations

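Other marker lists are given as values. Of all expressed genes, 51.8% were below 0, 1.44% at least 1.5-fold lower and 1.52% at least 1.5-fold higher. Cardiomyocyte markers were below 0 in 7 of 9, 1 of them past 1.5-fold, with a median log2 ratio of -0.08. Actc1 was at 6350 and 5799 RPKM, Nppa 1.56-fold lower and Ttn 1.26-fold higher. Macrophage markers were above 0 in 8 of 9 expressed, 2 of them past 1.5-fold, with a median of 0.31. Lyz2 was 1.40-fold higher, Fcgr3 1.92-fold higher and C1qa at 8.03 and 7.84 RPKM. Skeletal muscle markers were above 0 in 4 of 5 expressed, 2 of them past 1.5-fold, with a median of 0.36, Tnni2 3.97-fold higher and Ckm 1.36-fold lower. Myog and Myod1 of this list, below 1 RPKM and not counted, were lower, from 41 to 18 and from 18 to 2 reads. Of 7 cartilage markers 4 were expressed, 1 of them past 1.5-fold lower, with a median of -0.21. Among these Col2a1, the cartilage collagen, went from 21.7 to 25.2 RPKM, whereas Cnmd, chondromodulin, a vessel-restraining glycoprotein also made by heart valves, had 65 reads in wild type and 6 in knockout, 10.6-fold lower (4.63 to 30.0). Hepatocyte markers were low throughout, with a summed level of 5.69 RPKM in wild type and 2.90 in knockout. The 3 expressed members, 2 of them past 1.5-fold lower, had a median of -1.06. Afp was at 145 reads in wild type and 4 in knockout, Alb at 88 and 0, and Apoa2 at 39 and 42. No lung or foregut epithelial marker reached 1 RPKM. The Y-linked list had a median of -2.32, with its most abundant gene Eif2s3y at 908 and 0 reads, at least 297-fold lower against the floor of 3 reads per library.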
